A study of Mus musculus with 33 samples.

Results

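The EGF family ligands Nrg1, Ereg, Areg and Hbegf were followed through 3 droplet single-cell RNA libraries of mouse colon stroma. They were picked by gene symbol, 4 of the 31053 genes in each count matrix, and all 4 had UMIs (unique molecular identifiers, each marking 1 captured RNA molecule) in every library. Their levels were read in the 17652 barcodes counted as cells, those that reached 1000 UMIs and 500 genes without passing 20% mitochondrial UMIs. The gene identifiers are ENSMUSG00000062991 for Nrg1, ENSMUSG00000029377 for Ereg, ENSMUSG00000029378 for Areg and ENSMUSG00000024486 for Hbegf.

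Ligands of this family are made as membrane-bound precursors that metalloproteases such as Adam17 and Adam10 cut from the cell surface. Epiregulin (Ereg), amphiregulin (Areg) and heparin-binding EGF (Hbegf) activate the EGF receptor Egfr, whereas neuregulin 1 (Nrg1) binds the receptors Erbb3 and Erbb4, which signal in pairs with Erbb2. In the intestine these receptors sit on epithelial stem and progenitor cells, and ligands from the surrounding fibroblasts are among the signals for crypt growth and repair.

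The mice were adults of both sexes, and none was treated. Those of the GFP-low libraries carried PdgfraH2BeGFP (JAX strain 007669), in which Pdgfra drives a nuclear GFP. In the 2 GFP-low libraries (replicates 1 and 2) unstained colon cells were sorted for a low GFP level. The whole mesenchyme library held colon cells sorted as EpCAM-negative and CD45-negative, and has no replicate. It is labelled with the genotype control, and the labels do not say what this means. Genotype may therefore differ between the library types. The outer muscle was removed before digestion in all 3, and the labels do not say whether separate animals gave the 2 GFP-low libraries. The p-values given here therefore rest on how far these 3 libraries spread, which may be partly technical.

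GFP-low replicate 1 held 4834 cells, GFP-low replicate 2 held 6025 and whole mesenchyme held 6793, with median depths of 6446.5, 7025 and 4429 UMIs per cell. Pairs of libraries shared 6 to 11 cell barcodes. Free RNA, read from barcodes with 1 to 100 UMIs, carried all 4 ligands. It held 135 CPM (UMIs of a gene in 1000000 UMIs of the barcodes summed) of Ereg in GFP-low replicate 1, 199 in GFP-low replicate 2 and 923 in whole mesenchyme. Epithelial markers summed to 518 CPM in the free RNA of GFP-low replicate 1, against 13.3 and 4.91 CPM in the other libraries, and to 2.84 to 4.03 CPM in cells.

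Cells were grouped into 21 clusters on one part of the genes, which held neither the ligands nor the gene lists used here, and clusters were named from markers. Telocyte-like clusters (subepithelial cells high in Pdgfra) held 25 cells in GFP-low replicate 1, 15 in GFP-low replicate 2 and 1589 in whole mesenchyme. Adamdec1 fibroblast-like clusters held 1107, 1345 and 2382 cells, and Cd81-high fibroblast-like clusters held 2799, 4118 and 460 cells, in the same library order. A second class, called Adamdec1 cells, took every cell with at least 0.4% of its UMIs from Adamdec1, a metalloprotease-like gene of lamina propria fibroblasts. It held 1089, 1231 and 4737 cells, and 531, 440 and 1700 cells of the libraries had a share between 0.2% and 0.8%, near the limit on either side. This rule also took 1419 of the 1589 whole mesenchyme telocyte-like cells (89.3%), so results are given by cluster name as well. Most fibroblast clusters came from 1 library: whole mesenchyme gave 1955 of the 2020 cells of cluster 2, GFP-low replicate 1 gave 989 of the 1059 cells of cluster 8 and GFP-low replicate 2 gave 639 of the 672 cells of cluster 10. Library and cell state therefore cannot be told apart between them.

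Ereg, a ligand of Egfr, came mainly from Adamdec1 fibroblast-like cells. These held 67.9% of its cell-borne UMIs in GFP-low replicate 1, 68.8% in GFP-low replicate 2 and 64.6% in whole mesenchyme, against 26.5%, 21.7% and 48.7% of all UMIs. Its level there was 585 CPM in GFP-low replicate 1, 589 in GFP-low replicate 2 and 1803 in whole mesenchyme. In telocyte-like cells it was 267, 87.3 and 1620 CPM in the same order, and in Cd81-high fibroblast-like cells 88.4, 72.1 and 275 CPM. Adamdec1 fibroblast-like cells were thus highest of the 3 stromal classes in every library. Cd81-high cells were lowest, although in GFP-low replicate 2 the telocyte-like level rested on 15 cells and its interval held the Cd81-high level. Among the other whole mesenchyme classes, T and innate lymphoid cells at 521 CPM and smooth muscle at 476 stood above Cd81-high cells, and below came endothelium at 268, glia at 176, lymphatic endothelium at 155, B and plasma cells at 152 and pericytes at 148. The exact Poisson intervals of the neighbours T cells and smooth muscle overlapped, as did those of Cd81-high cells and endothelium, and those of the 4 lowest classes. The T and innate lymphoid class was 10 cells, 5 of them Adamdec1 cells, with 5945 CPM of Adamdec1. Such intervals cover counting error only.

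Ereg in the low classes sat below the free RNA of the same library. It was 0.291 of the free-RNA level in endothelium, 0.191 in glia and 0.161 in pericytes of whole mesenchyme, close to the 0.219, 0.281 and 0.225 found there for Adamdec1 itself. In Cd81-high fibroblast-like cells Ereg was 0.654, 0.363 and 0.298 of free RNA in GFP-low replicate 1, GFP-low replicate 2 and whole mesenchyme. Adamdec1 was 0.152, 0.112 and 0.0765 of it there, so Ereg stood further above Adamdec1 in these cells. They held 24.9% and 29.1% of the Ereg UMIs of the GFP-low libraries, against 64.1% and 74.9% of all UMIs. In smooth muscle of whole mesenchyme Ereg was 0.516 of free RNA while Adamdec1 was 1.07 of it, at 8519 CPM. Of these 152 smooth muscle cells, 122 (80.3%) met the Adamdec1 rule, whose part in the ligand levels of this class was not tested. With every cell thinned to 1000 UMIs, 28.4%, 26.7% and 51.8% of Adamdec1 fibroblast-like cells had an Ereg UMI in GFP-low replicate 1, GFP-low replicate 2 and whole mesenchyme. The unthinned shares were 63.4%, 56.4% and 81.5% at median depths of 7154, 6588 and 6304 UMIs. Endothelium of whole mesenchyme, which stands here for cells lacking the gene, had an Ereg UMI in 9.82% of thinned and 23.3% of unthinned cells at a median of 2918.5 UMIs.

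**Figure D1:**
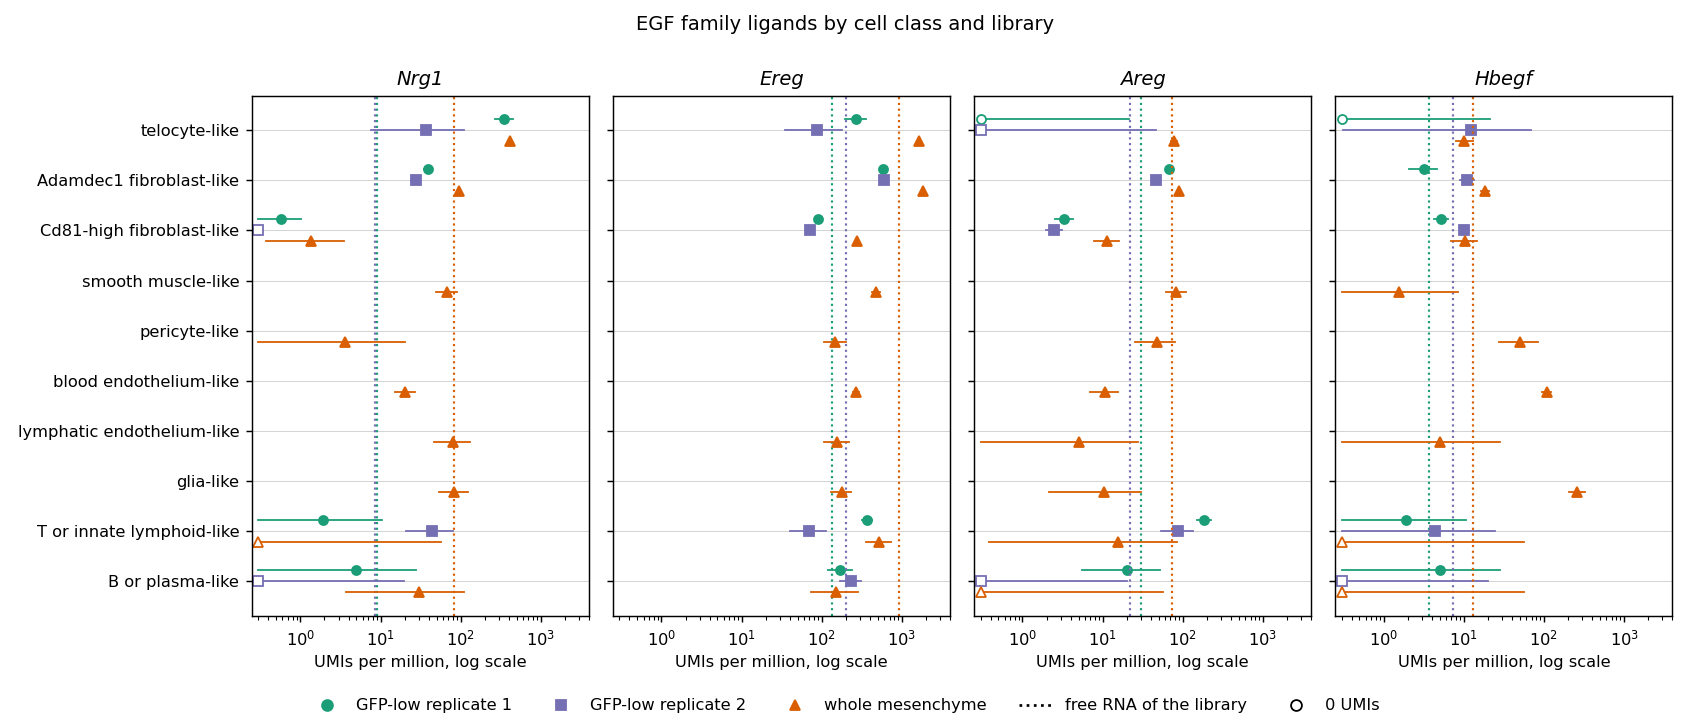
Level of each ligand (CPM, log axis) by cell class, with 1 point per library, exact Poisson 95% intervals and open points for 0 UMIs; dotted lines mark the free RNA of each library. Ereg is highest in Adamdec1 fibroblast-like cells among the 3 stromal classes, Nrg1 in whole mesenchyme telocyte-like cells at 414 CPM, and Hbegf in glia at 259 CPM.

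Areg, a second Egfr ligand that lies next to Ereg on mouse chromosome 5, shared the Adamdec1 fibroblast-like source. These cells held 73.2%, 80.0% and 64.3% of its UMIs in GFP-low replicate 1, GFP-low replicate 2 and whole mesenchyme, at 67.8, 45.8 and 88.9 CPM. Cd81-high fibroblast-like cells had 3.30, 2.49 and 11.3 CPM. Telocyte-like cells had no Areg UMI in either GFP-low library, where the upper limits of the exact interval were 21.4 and 46.0 CPM, and 77.1 CPM in whole mesenchyme. T and innate lymphoid cells, few in these sorts, carried 184 CPM (exact interval 149 to 224) in GFP-low replicate 1, 86.9 in GFP-low replicate 2 and 15.3, from 1 UMI, in whole mesenchyme. Their 82 cells in GFP-low replicate 1 held 13.3% of its Areg UMIs and 1.78% of all UMIs. The fibroblast gene Adamdec1 stood at 4444 and 6420 CPM in this class of the GFP-low libraries, and 25.6% and 34.3% of its cells met the Adamdec1 rule, whose part in their Areg was not tested. Areg is known as a product of type 2 innate lymphoid and regulatory T cells.

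In whole mesenchyme the Areg levels of Adamdec1 fibroblast-like cells, smooth muscle (83.1 CPM) and telocyte-like cells were 1.22, 1.14 and 1.05 times the free RNA level of 73.2 CPM. In the GFP-low libraries Adamdec1 fibroblast-like cells had 2.27 and 2.10 times the free RNA. After thinning, 3.43%, 2.45% and 4.37% of Adamdec1 fibroblast-like cells had an Areg UMI in GFP-low replicate 1, GFP-low replicate 2 and whole mesenchyme (8.49%, 5.80% and 11.5% unthinned). Endothelium had one in 0.765% of thinned cells.

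The mouse Areg promoter is shown because a cyclic-AMP response element just before the start site is a textbook feature of this gene. It is the RefSeq stretch of 250 bases before the Areg start on the plus strand of build GRCm38.p6, at chr5:91139349-91139598, with the matches of TGACGTCA and TATAAA in capitals.
Areg: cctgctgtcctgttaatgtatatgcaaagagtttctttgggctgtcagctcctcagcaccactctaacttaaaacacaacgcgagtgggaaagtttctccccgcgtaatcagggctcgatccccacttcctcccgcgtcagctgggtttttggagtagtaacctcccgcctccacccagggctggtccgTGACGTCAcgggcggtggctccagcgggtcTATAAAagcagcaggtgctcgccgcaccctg
The first motif lies 61 to 54 and the second 31 to 26 bases before the start. On either strand, TGACGTCA occurs in 1.55% and TATAAA in 12.4% of the 32851 mouse promoters of that length. The letters TGANTCA and CCAAT, present in 6.75% and 33.8% of promoters, are not in this window. The gene body follows at 91139599 to 91148432, and Ereg lies upstream on the same chromosome at 91074617 to 91093649.

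Nrg1, the ligand of Erbb3 and Erbb4, was highest in telocyte-like cells among the 3 stromal classes. Its level there was 348 CPM (exact interval 265 to 448) in GFP-low replicate 1, 37.4 (7.71 to 109, from 3 UMIs) in GFP-low replicate 2 and 414 (398 to 429) in whole mesenchyme. Adamdec1 fibroblast-like cells had 39.6, 27.5 and 96.1 CPM in that order, and Cd81-high fibroblast-like cells 0.576, 0 and 1.37 CPM. The telocyte-like level of GFP-low replicate 2 therefore overlapped its Adamdec1 level, while those of the other libraries stood above theirs. In GFP-low replicate 2 the T and innate lymphoid cells had 43.5 CPM, from 10 UMIs, and their interval overlapped the telocyte-like one. Telocyte-like cells of whole mesenchyme held 61.4% of its Nrg1 UMIs and 21.5% of all UMIs. In the GFP-low libraries, which held few telocyte-like cells, Adamdec1 fibroblast-like cells held 80.0% and 94.2% of the Nrg1 UMIs.

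In the other whole mesenchyme classes Nrg1 stood at 83.0 CPM in glia, 80.2 in lymphatic endothelium, 67.7 in smooth muscle, 20.4 in endothelium and 3.61 in pericytes, and the intervals of the first 3 overlapped each other and that of Adamdec1 fibroblast-like cells. Free RNA of whole mesenchyme held 81.4 CPM. Relative to free RNA, Nrg1 in telocyte-like cells was 38.3-fold in GFP-low replicate 1, 4.42-fold in GFP-low replicate 2 and 5.09-fold in whole mesenchyme. After thinning, 24.0%, 6.67% and 19.9% of telocyte-like cells had an Nrg1 UMI (40.0%, 20.0% and 34.7% unthinned, at median depths of 7114, 5082 and 4058 UMIs). Endothelium had one in 1.53% of thinned cells.

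Telocyte-like cells of whole mesenchyme varied among themselves in Nrg1. Cluster 12, with 516 of them and a median depth of 1686.5 UMIs, had 1350 CPM, whereas cluster 5, with 1073, had 240 CPM. Their Ereg levels were 1876 and 1573 CPM and their Areg levels 104 and 72.1 CPM. The difference in Nrg1 thus ran along with a difference in depth, whose part in it was not tested.

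Hbegf reached its highest levels outside the fibroblasts. In whole mesenchyme it was highest in glia at 259 CPM (exact interval 204 to 325), then endothelium at 108 (95.8 to 122) and pericytes at 50.6 CPM, with 19.8, 8.25 and 3.86 times the free RNA. Adamdec1 fibroblast-like cells had 3.18, 11.0 and 18.3 CPM in GFP-low replicate 1, GFP-low replicate 2 and whole mesenchyme, Cd81-high fibroblast-like cells 5.24, 9.98 and 10.3, and telocyte-like cells 0, 12.5 and 10.2. These fibroblast levels were at 0.783 to 1.51 times the free RNA in the Adamdec1 and Cd81-high classes, so Hbegf of fibroblasts was near free RNA. Endothelium gave 35.6% of the Hbegf UMIs of whole mesenchyme from 8.14% of its UMIs, and glia 9.68% from 0.923%. By number, however, a fibroblast class held the largest share of Hbegf UMIs in each library. Adamdec1 fibroblast-like cells held 36.0% of those of whole mesenchyme, and Cd81-high cells 75.2% and 74.6% of those of the GFP-low libraries. After thinning, 20.0% of glia and 7.78% of endothelial cells had an Hbegf UMI (46.2% and 18.1% unthinned, at medians of 4052 and 2918.5 UMIs), against 1.47% of Adamdec1 fibroblast-like cells of that library.

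**Figure D2:**
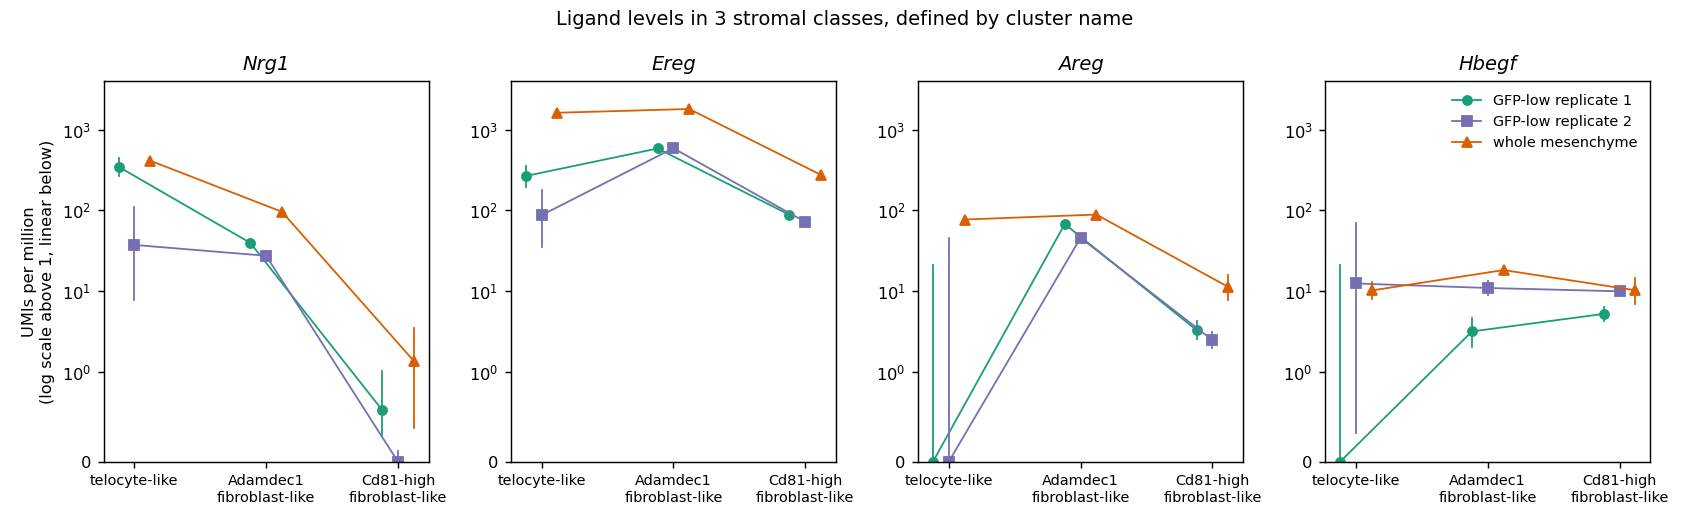
Level of the 4 ligands (CPM, log axis) in telocyte-like, Adamdec1 fibroblast-like and Cd81-high fibroblast-like cells by cluster name, with a line per library and exact Poisson 95% intervals. In all 3 libraries Nrg1 is highest in telocyte-like cells (414 CPM in whole mesenchyme) and lowest in Cd81-high cells (1.37 CPM), while Hbegf lies between 0 and 18.3 CPM.

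The stromal classes were compared on sums of UMIs per class and library with edgeR's quasi-likelihood test, with library as a block and Benjamini-Hochberg adjustment over all genes tested. Adamdec1 cells were set against Cd81-high fibroblast-like cells first. Ereg was 568, 551 and 1687 CPM in Adamdec1 cells of GFP-low replicate 1, GFP-low replicate 2 and whole mesenchyme, against 83.5, 70.8 and 248 CPM in Cd81-high cells. Areg was 66.9, 43.1 and 82.4 CPM in Adamdec1 cells, against 3.34, 2.50 and 11.1 CPM. Nrg1 was 44.3, 30.5 and 173 CPM in Adamdec1 cells, against 0.106, 0 and 1.39 CPM. The classes did not overlap for these 3 ligands, and the share of all genes for which this held was not counted.

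Ereg, Areg and Nrg1 were higher in Adamdec1 cells, and Hbegf was not called. That is 3 of 4 ligands, where 13.5% of the 6341 genes tested were higher in Adamdec1 cells and 11.5% lower. Ereg was 6.80-, 7.78- and 6.80-fold higher in the 3 libraries (log2 difference 2.71 ± 0.28 SE, edgeR adjusted p = 2.45e-05). Areg was 20.0-, 17.2- and 7.43-fold higher (log2 3.75 ± 0.30, edgeR adjusted p = 3.87e-06). Nrg1 was at least 309-fold higher in GFP-low replicate 2, set against a floor of 3 counts, and 125-fold higher in whole mesenchyme (fitted log2 8.29 ± 0.34, edgeR adjusted p = 4.88e-08). Hbegf, at 3.33, 9.80 and 16.0 CPM in Adamdec1 cells against 5.31, 9.94 and 10.1 in Cd81-high cells, had a log2 difference of -0.094 ± 0.23 (edgeR adjusted p = 0.829). By cluster name the same 3 ligands were called, where 14.0% of 6102 genes were higher and 14.1% lower, with log2 differences of 2.73 for Ereg, 3.84 for Areg and 6.81 for Nrg1. Without the library block Ereg was not called, at log2 2.74 with an edgeR adjusted p of 0.0699.

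Telocytes were then set against Adamdec1 cells. By cluster name, Nrg1 was the ligand that was higher in telocyte-like cells and Ereg the one that was lower, where 7.26% of 6102 genes were higher and 9.32% lower. Nrg1 was 8.78-fold higher in GFP-low replicate 1, 1.36-fold in GFP-low replicate 2 and 4.30-fold in whole mesenchyme (log2 2.16 ± 0.28, edgeR adjusted p = 6.28e-05), and stayed called without any one library. With DESeq2 it was not called (log2 1.58, adjusted p = 0.369), nor without the library block (log2 2.29, edgeR adjusted p = 0.0900). Ereg was 0.456, 0.148 and 0.899 times its Adamdec1 level (log2 -1.08 ± 0.35, edgeR adjusted p = 0.0450). That call was lost without GFP-low replicate 1 (log2 -1.02) and without GFP-low replicate 2 (log2 -0.67). Areg and Hbegf had log2 differences of -0.63 and -0.69 with edgeR adjusted p of 0.203 and 0.197.

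Telocyte-like cells under the 0.4% Adamdec1 limit numbered 13 in GFP-low replicate 1 and 170 in whole mesenchyme, and the 5 of GFP-low replicate 2 were too few to sum. In these, Nrg1 was 197 and 688 CPM, against 44.3 and 173 CPM in Adamdec1 cells of the same libraries. It was 4.45- and 3.97-fold higher (log2 1.83 ± 0.26, edgeR adjusted p = 0.00425), where 0.978% of 6341 genes were higher and 1.85% lower. The call did not hold without GFP-low replicate 1 (log2 1.79, edgeR adjusted p = 0.225) or without whole mesenchyme (log2 1.73, edgeR adjusted p = 0.0540). Each of these fits left 1 telocyte sum, which was assumed to vary like the sums of the other classes. The other ligands were not called.

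Against Cd81-high fibroblast-like cells, telocyte-like cells by cluster name were higher in Nrg1, Areg and Ereg, 3 of 4 ligands, where 13.0% of 6102 genes were higher and 14.9% lower. Nrg1 was 603-fold higher in GFP-low replicate 1 and 302-fold in whole mesenchyme (log2 8.97 ± 0.43, edgeR adjusted p = 1.11e-09). Ereg was 3.02-, 1.21- and 5.89-fold higher (log2 1.65 ± 0.36, edgeR adjusted p = 0.00253), and 0.84 on the log2 scale without whole mesenchyme. The Areg call (log2 3.20 ± 0.37, edgeR adjusted p = 8.2e-06) rested on whole mesenchyme, where Areg was 6.83-fold higher, since telocyte-like cells of both GFP-low libraries had no Areg UMI. Without whole mesenchyme the fitted Areg difference was -8.10. The telocyte-like cells under the 0.4% limit gave the same 3 calls, where 4.89% of 6341 genes were higher and 5.93% lower. There Ereg (log2 1.64 ± 0.35, edgeR adjusted p = 0.0110) was not called without whole mesenchyme, at 0.35 (edgeR adjusted p = 0.726).

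Other genes of the pathway were read from lists of EGF family ligands, receptors, shedding factors and feedback regulators. Of the 11 family ligands, Btc (betacellulin, an Egfr and Erbb4 ligand) had 262, 222 and 269 UMIs over the cells of GFP-low replicate 1, GFP-low replicate 2 and whole mesenchyme, and Nrg2, a second neuregulin, had 22, 26 and 182. Egf, Epgn, Tgfa and Nrg4 had 0 to 30 UMIs a library, and Nrg3 had none. Btc was 17.4, 99.7 and 21.8 CPM in telocyte-like cells, against 7.62, 8.03 and 5.04 CPM in Adamdec1 fibroblast-like cells, and was called higher in telocyte-like cells by cluster name. The telocyte-like levels of the GFP-low libraries came from 25 and 15 cells, and 17.4 CPM is the level of 3 counts there. Nrg2 was 20.9 CPM in whole mesenchyme telocyte-like cells and 0.786 CPM in its Adamdec1 fibroblast-like cells.

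Among the receptors, Egfr was lower in Adamdec1 cells, where Ereg and Areg were higher. It was 71.7, 48.5 and 102 CPM in Adamdec1 cells, against 133, 105 and 148 CPM in Cd81-high cells (log2 -0.96 ± 0.15, edgeR adjusted p = 0.000473). Erbb2 had no call, at 18.3, 11.8 and 11.7 CPM in Adamdec1 fibroblast-like and 19.1, 10.8 and 11.0 CPM in Cd81-high cells. Erbb3 had 9, 7 and 49 UMIs, of which 42 lay in whole mesenchyme glia at 145 CPM, and Erbb4 had none. Glia, the class with the highest Hbegf level in CPM, thus also held most Erbb3 UMIs.

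Of the 9 shedding factors tested, 4 were higher in Adamdec1 cells than in Cd81-high cells and 3 were lower, beside 13.5% and 11.5% of all genes. By cluster name Adam10 was not called, leaving 3 higher. The protease Adam19 was higher (log2 1.87 ± 0.15, edgeR adjusted p = 4.53e-06), as was the metalloprotease inhibitor Timp3 at log2 1.10, while the protease Adam12 was lower at -1.12. Adam17, the main sheddase of Areg and Ereg, was not called. Of 16 feedback and ERK response genes, the signalling inhibitors Spry1 (log2 2.68 ± 0.20, edgeR adjusted p = 2.36e-06) and Spry4 (1.53) were higher, and 3 were lower, among them Errfi1 (-1.20), an inhibitor of Egfr. The list medians were log2 0.080 for shedding factors and -0.096 for feedback genes, against -0.0038 over all genes tested. By cluster name, Spry4 (1.53), Spry2 (1.05) and Spry1 were higher in telocyte-like than in Adamdec1 fibroblast-like cells, 3 of 14 tested, and Lrig3 was lower, beside 7.26% and 9.32% of all genes. Adam19 was higher there by 1.27.

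Outside the lists, the genes that differed most between Adamdec1 cells and Cd81-high cells were Agt, Adgrl3, Syt13, Tbx2 and Enho on the Adamdec1 side and Pcolce2, Ebf1, Cmah, Gas1 and Col8a1 on the Cd81-high side. Inflammatory genes were mixed, with 7 of 20 higher, led by Il1rl1 (log2 4.77), Saa3 (4.21) and Cxcl5 (4.15), and 6 lower, beside the 13.5% and 11.5% of all genes. By cluster name, which takes telocyte-like cells out of the Adamdec1 class, 6 were higher and Il1rl1, a leading gene of telocyte-like cluster 12, was not among them. Among 16 dissociation response genes (immediate early and stress genes that tissue digestion induces), none was higher and Atf3 was lower at log2 -1.28.

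Within Adamdec1 cells, Ereg was spread unevenly from cell to cell. The median cell had 1, 1 and 2 Ereg UMIs in GFP-low replicate 1, GFP-low replicate 2 and whole mesenchyme, and the highest had 92, 120 and 143. The 10% of cells with the most held 57.2%, 65.3% and 55.8% of the UMIs. After thinning, the variance of Ereg over its mean was 3.00, 3.97 and 4.13, against 1 for Poisson counting. For Areg this ratio was 3.83, 2.42 and 3.17 and for Nrg1 1.47, 1.94 and 3.07. For Hbegf it was 0.994, 1.14 and 1.29, at thinned means of 0.00643, 0.0106 and 0.0127 UMIs per cell. At means so low the ratio stays near 1 for most spreads, so it cannot tell how evenly Hbegf was spread. Unthinned, the highest cell had 2, 5 and 29 Hbegf UMIs.

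The share of Adamdec1 itself did not order the ligands alike. Among Adamdec1 fibroblast-like cells of whole mesenchyme, Ereg was 1507, 1781, 2110 and 1881 CPM in cells with 0.4% to 0.8%, 0.8% to 1.2%, 1.2% to 1.6% and at least 1.6% Adamdec1, with Adamdec1 left out of the total. Areg in the same bins was 141, 104, 93.8 and 69.4 CPM, and Hbegf was 29.0, 23.0, 15.5 and 12.1 CPM. Areg and Hbegf were thus lower in each higher bin of that library, and Ereg was not. In GFP-low replicate 1 the Areg bins were 64.3, 61.4, 77.8 and 66.7 CPM and had no such order. Its Hbegf bins were 4.83, 3.61, 2.80 and 2.28 CPM, from 9, 6, 4 and 4 UMIs, and their exact intervals all overlapped. In GFP-low replicate 2 Hbegf was 22.0, 13.8, 8.03 and 2.04 CPM.

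Adamdec1 cells with an Ereg UMI were next set against those without one. They numbered 682, 695 and 3530 with and 407, 536 and 1207 without, at median depths of 7461.5, 7246 and 5556.5 UMIs with and 6382, 5766 and 2907 without. Nrg1 was 55.2, 31.6 and 200 CPM in cells with an Ereg UMI, against 21.7, 28.8 and 53.7 CPM in those without. Areg was 60.9, 32.7 and 85.8 CPM with, against 79.4, 60.5 and 67.6 CPM without. By exact Poisson intervals, Nrg1 was thus higher with Ereg in GFP-low replicate 1 and whole mesenchyme, while those of GFP-low replicate 2 overlapped. Areg was lower with Ereg in both GFP-low libraries and higher in whole mesenchyme. At an equal depth of 1000 UMIs, 4.44%, 1.56% and 13.3% of cells with an Ereg UMI had an Nrg1 UMI, against 2.58%, 2.31% and 5.18% of those without, so GFP-low replicate 2 then pointed the other way. The exact intervals of both GFP-low libraries then overlapped, at 2.45% to 7.34% against 1.59% to 3.96% in GFP-low replicate 1. Those of whole mesenchyme did not.

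Nrg1 was 2.54-, 1.10- and 3.73-fold higher in cells with an Ereg UMI (log2 1.44 ± 0.17, edgeR adjusted p = 2.97e-06), 1 of 3 ligands tested, where 1.79% of 11348 genes were higher and 0.493% lower. Without whole mesenchyme the difference was 0.76 and not called (edgeR adjusted p = 0.111), and with DESeq2 it was 1.18 and not called (adjusted p = 0.291). Within Adamdec1 fibroblast-like clusters alone, Nrg1 was 48.3, 32.2 and 111 CPM with, against 23.2, 27.9 and 24.9 CPM without (log2 1.28 ± 0.20, edgeR adjusted p = 0.00026), where 1.92% of 10963 genes were higher and 0.274% lower. There too it was not called without whole mesenchyme (log2 0.64, edgeR adjusted p = 0.0785). Areg (log2 -0.14 ± 0.13, edgeR adjusted p = 0.769) and Hbegf (0.49 ± 0.20, edgeR adjusted p = 0.298) were not called. Without whole mesenchyme, however, Areg was called lower, at -0.58 (edgeR adjusted p = 0.0390).

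Inflammatory genes were higher in the cells with an Ereg UMI. Of 19 tested, 12 were higher and none lower, beside 1.79% and 0.493% of all genes, with a list median of 0.61 against -0.0050 over all genes. The list was chosen with earlier results of these data known, and Saa3, Cxcl2 and Ereg are together leading genes of cluster 2. This share is therefore a description and no independent check. Ptgs2, the inducible prostaglandin synthase, was 257, 318 and 875 CPM with an Ereg UMI, against 99.9, 154 and 366 CPM without (log2 1.26 ± 0.08, edgeR adjusted p = 1.41e-10). The neutrophil chemokine Cxcl2 was higher by 1.18 and the acute-phase gene Saa3 by 1.01. Of 16 dissociation response genes 3 were higher (Nr4a1 by 0.55, Ier3 by 0.42, Atf3 by 0.33), and 11 of 16 were higher within Adamdec1 fibroblast-like clusters, where 1.92% of all genes were. Their part in the Ereg pattern was not tested. Of 14 feedback and ERK response genes 3 were higher, Errfi1 by 0.64, Phlda1 by 0.38 and Spry1 by 0.34. Outside the lists, Plk2 (0.98), the bradykinin receptor Bdkrb2 (0.94), Bcr (0.89), Nr4a3 (0.77) and Hcar2 (0.75) were highest, and Fibin (-0.69), Svil (-0.60), Pnisr (-0.53), Tagln (-0.48) and Fry (-0.42) were lowest.

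**Figure D3:**
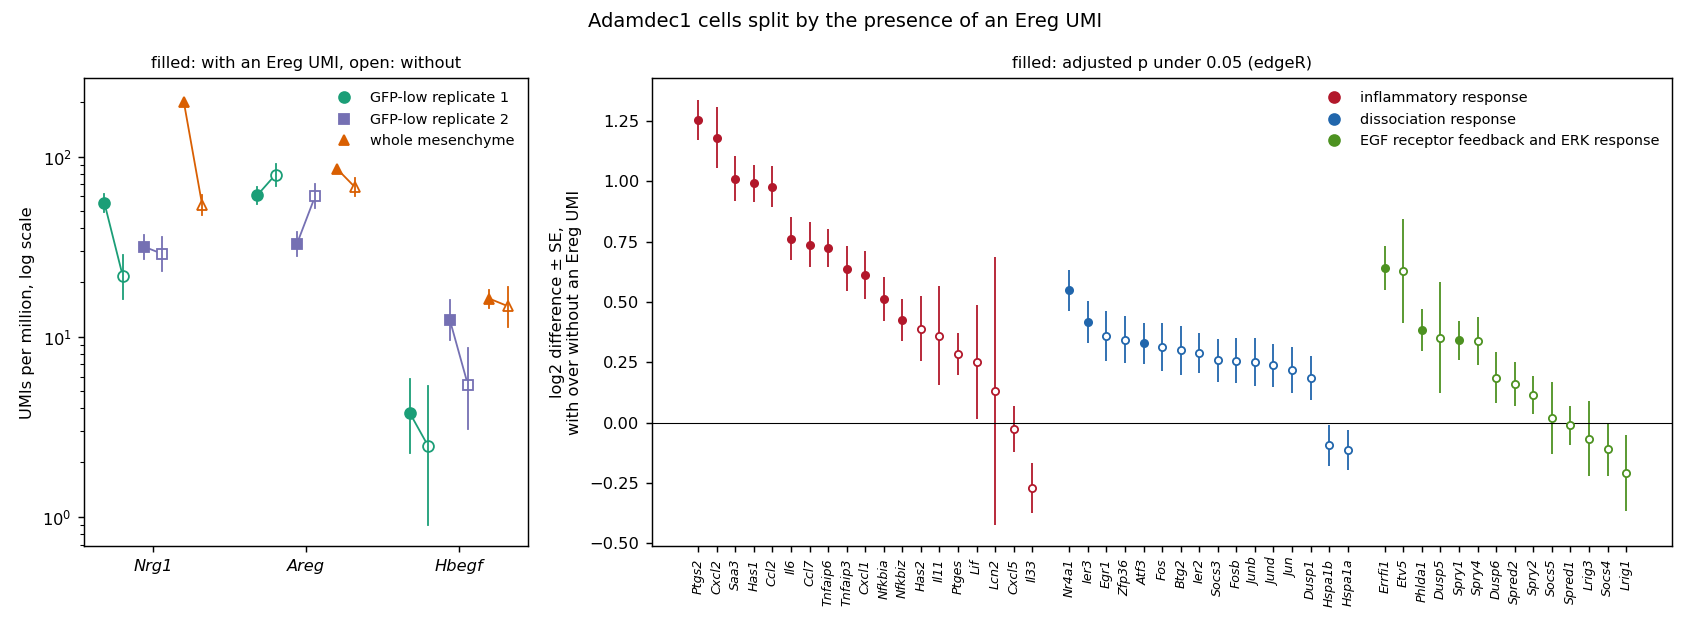
Adamdec1 cells with (filled) and without (open) an Ereg UMI: on the left Nrg1, Areg and Hbegf (CPM, log axis) by library, and on the right log2 differences with their SE for genes of the inflammatory, dissociation and ERK lists, filled where the adjusted p is below 0.05. Nrg1 with Ereg is 55.2, 31.6 and 200 CPM, against 21.7, 28.8 and 53.7 CPM without, and 12 of 19 inflammatory genes are filled on the positive side.

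In the reverse split, by an Nrg1 UMI, Ereg was higher in the cells with Nrg1. Ereg was 939, 806 and 2731 CPM in Adamdec1 cells with an Nrg1 UMI, against 515, 523 and 1388 CPM in those without. Unthinned, it was higher with Nrg1 by 1.82-, 1.54- and 1.97-fold (log2 0.83 ± 0.07, edgeR adjusted p = 4.94e-07), where 4.50% of 11682 genes were higher and 4.19% lower, and it stayed called without any one library. After thinning to 1000 UMIs, 41.2%, 19.2% and 71.9% of cells with an Nrg1 UMI had an Ereg UMI, against 28.5%, 26.1% and 47.7% of those without, the other way in GFP-low replicate 2, where 26 cells had Nrg1. Both splits read the same cells, so neither stands as a check of the other.

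Areg went the other way where the split was held to Adamdec1 fibroblast-like clusters. There it was 16.5, 35.4 and 50.8 CPM in cells with an Nrg1 UMI, against 73.3, 46.0 and 100 CPM in those without. It was lower with Nrg1 in all 3 libraries (log2 -1.06 ± 0.16, edgeR adjusted p = 4.88e-05), where 3.29% of 11092 genes were lower and 4.17% higher, and the call held without any one library. The intervals of GFP-low replicate 2 overlapped. The share of thinned cells with an Areg UMI did not show this: with Nrg1 it was 6.90% of 29 cells in GFP-low replicate 1 and 4.72% of 106 in whole mesenchyme, against 3.06% and 4.44% without. In GFP-low replicate 2 it was 0 of 24 cells with Nrg1 (exact upper limit 14.2%), against 26 of 1130 without. Over all Adamdec1 cells, telocyte-like ones included, the Areg difference was -0.26 ± 0.13 and not called (edgeR adjusted p = 0.283). Without whole mesenchyme it was -0.65 and called (edgeR adjusted p = 0.0174). Hbegf differed by 0.14 ± 0.23 and was not called.

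Cells with an Nrg1 UMI, telocyte-like ones included, also carried other genes at higher levels, led by Hp (haptoglobin, log2 4.10), Ces1g (2.96), the endothelin receptor Ednrb (2.68), and the transcription factors Tbx3 and Prdm1. Adh1, Entpd2, Trabd2b and Mfap5 were among the genes that were lower. Inflammatory genes split, with 6 higher, among them Lcn2 (4.36) and Il1rl1 (4.14), and 7 lower of 20, among them Il33 (-1.82). Among dissociation genes 4 of 16 were lower, led by Atf3 (-0.44), Zfp36 (-0.38) and Egr1 (-0.34), and 1 was higher. Whether this differs from the Ereg split was not tested. Ednrb leads the telocyte-like clusters 5 and 12 and Il1rl1 leads cluster 12, so genes of telocyte-like cells moved with this split. Within Adamdec1 fibroblast-like clusters Hp (4.54) and Ces1g (3.05) were again highest, neither Lcn2 nor Il1rl1 was among the inflammatory genes called, and 4 of 18 inflammatory genes were higher and 5 lower, beside 4.17% and 3.29% of all genes.

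The level of Ereg differed between libraries in cells of the same Adamdec1 rule. Ereg was 568 and 551 CPM in Adamdec1 cells of the GFP-low libraries, against 1687 CPM in whole mesenchyme, 3.02-fold higher in whole mesenchyme. Nrg1 was 44.3 and 30.5 CPM, against 173 CPM, 4.63-fold higher in whole mesenchyme. Areg was 66.9 and 43.1 CPM, against 82.4, and Hbegf 3.33 and 9.80 CPM, against 16.0. These differences were not tested. Ereg and Nrg1 were the ligands at least 2-fold lower in both GFP-low libraries, 2 of 4, which held for 4.62% of the 14255 genes with at least 10 UMIs, while 2.90% were at least 2-fold higher. Adamdec1 itself was 12298 and 14054 CPM in the GFP-low libraries, against 13281 in whole mesenchyme.

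Free RNA moved the same way. It held 9.08 and 8.46 CPM of Nrg1 in the GFP-low libraries, against 81.4 CPM in whole mesenchyme. For Ereg the cells stood 4.20 and 2.77 times above the free RNA in the GFP-low libraries, against 1.83 times in whole mesenchyme, and for Nrg1 4.88 and 3.61 times, against 2.13. Free-RNA Adamdec1 was 1960 and 1783 CPM, against 7962 CPM. With free RNA subtracted at a share estimated for each library from genes of other classes, the log2 difference of GFP-low over whole mesenchyme was -1.62 for Ereg and -2.25 for Nrg1, against -1.59 and -2.21 as counted.

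**Figure D4:**
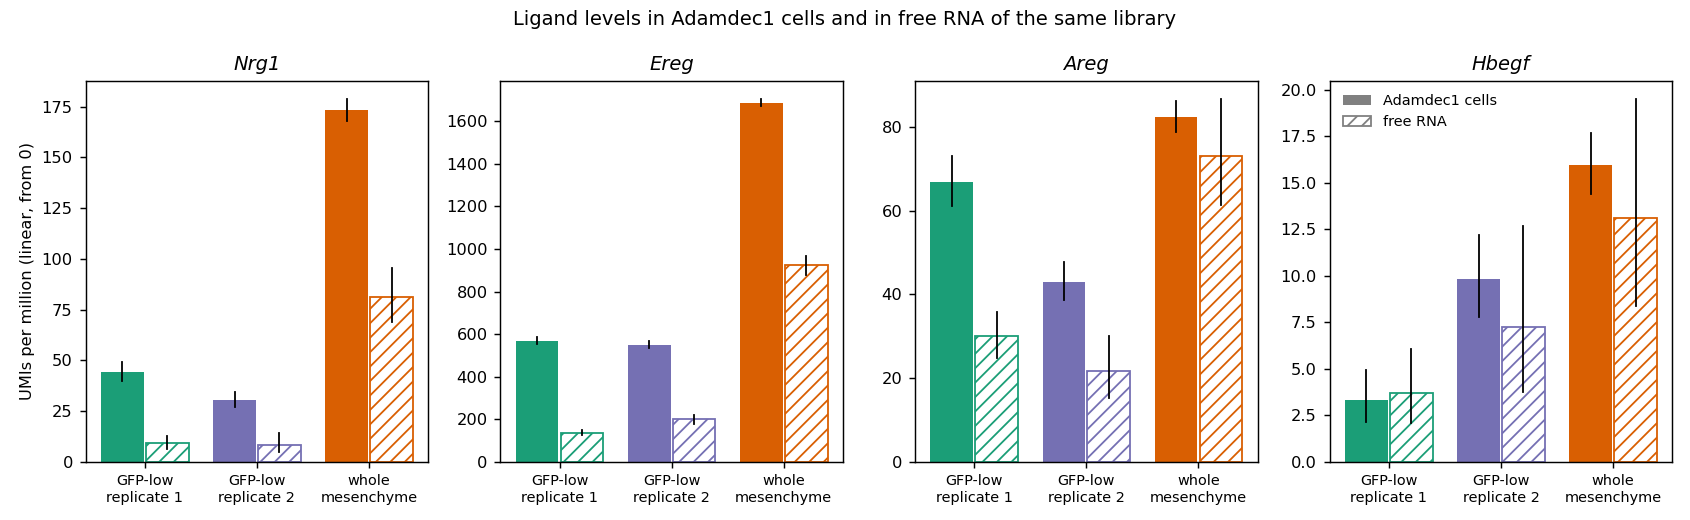
Level of the 4 ligands (CPM) in Adamdec1 cells (filled bars) and in free RNA (hatched bars) of the 3 libraries, with exact Poisson 95% intervals. Both cells and free RNA are highest in whole mesenchyme, where Ereg is 1687 CPM in cells and 923 CPM in free RNA.

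Cell makeup also differed. Telocyte-like cells were 1.10% and 0.812% of Adamdec1 cells in the GFP-low libraries, against 30.0% in whole mesenchyme. Cells of clusters left without a name were 7.44% and 2.19%, against 18.6%. Adamdec1 fibroblast-like clusters gave 86.8% and 93.7%, against 47.4%. Held to Adamdec1 fibroblast-like clusters, Nrg1 was 40.5 and 30.6 CPM in GFP-low, against 98.4 CPM in whole mesenchyme, a 2.77-fold difference. Ereg was 581 and 571 CPM, against 1833 CPM, a 3.18-fold difference. Both stayed at least 2-fold lower in GFP-low, as were 2.22% of 13447 genes, while 2.13% were higher. Xist, a transcript of female cells, was the first leading gene of the unnamed cluster 6, where whole mesenchyme gave 963 of 1087 cells. Whether the libraries differed in the sex of their mice was not tested, nor was its part in the ligand differences.

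Some inflammatory and dissociation genes were also lower in GFP-low Adamdec1 cells by the 2-fold rule, which 4.62% of all genes met. Of 20 inflammatory genes 6 were at least 2-fold lower in both GFP-low libraries and 1 (Lcn2) was higher, with a median log2 difference of -0.86. Of 16 dissociation genes 3 were lower, with a median of -0.74. Ptgs2 was 206 and 257 CPM in the GFP-low libraries, against 781 CPM in whole mesenchyme, and Cxcl2 was 114 and 301 CPM, against 741 CPM. The part of either list in the ligand differences was not tested.

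Among Adamdec1 fibroblast-like clusters, Ereg and the summed inflammatory list were both highest in cluster 2 and both low in cluster 7. The summed dissociation list did not keep this order, and telocyte-like clusters lay outside it. Cluster 2, at 1592 CPM of Ereg in GFP-low replicate 2 and 2015 in whole mesenchyme, had inflammatory sums of 14257 and 12823 CPM and dissociation sums of 50287 and 51674 CPM. Cluster 7, at 424, 221 and 474 CPM of Ereg in GFP-low replicate 1, GFP-low replicate 2 and whole mesenchyme, had inflammatory sums of 2843, 1507 and 2127 CPM and dissociation sums of 19847, 9561 and 16260 CPM. In cluster 8 Ereg was 565 CPM in GFP-low replicate 1, against 493 CPM in whole mesenchyme, and in cluster 10 it was 786 CPM in GFP-low replicate 2, against 1083 CPM in whole mesenchyme. Where libraries shared an Adamdec1 fibroblast-like cluster, Ereg thus differed between GFP-low and whole mesenchyme by less than the 3.02-fold of the pooled Adamdec1 cells. Cd81-high clusters were not compared in this way. In clusters 2, 8 and 10 the minor library gave 29 to 52 cells. Cluster 8 had inflammatory sums of 3856 and 2099 CPM and dissociation sums of 32424 and 20811 CPM in GFP-low replicate 1 and whole mesenchyme. Cluster 10 had inflammatory sums of 8932 and 11152 CPM in GFP-low replicate 2 and whole mesenchyme. Its dissociation sums, 52289 and 49374.5 CPM, were close to those of cluster 2, at lower Ereg. The telocyte-like clusters 5 and 12 of whole mesenchyme had 1573 and 1876 CPM of Ereg at inflammatory sums of 6809 and 6358 CPM and dissociation sums of 60435 and 52080 CPM. Cluster 5 of GFP-low replicate 1 (21 cells) had 266 CPM of Ereg and a dissociation sum of 11558 CPM. In this telocyte-like cluster Ereg thus differed between the libraries by more than 3.02-fold. The part of cell makeup in the library difference was not tested. Nrg1 had no such order, at 51.7 CPM in cluster 7 of GFP-low replicate 1 and 21.5 CPM in cluster 2 of GFP-low replicate 2.

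**Figure D5:**
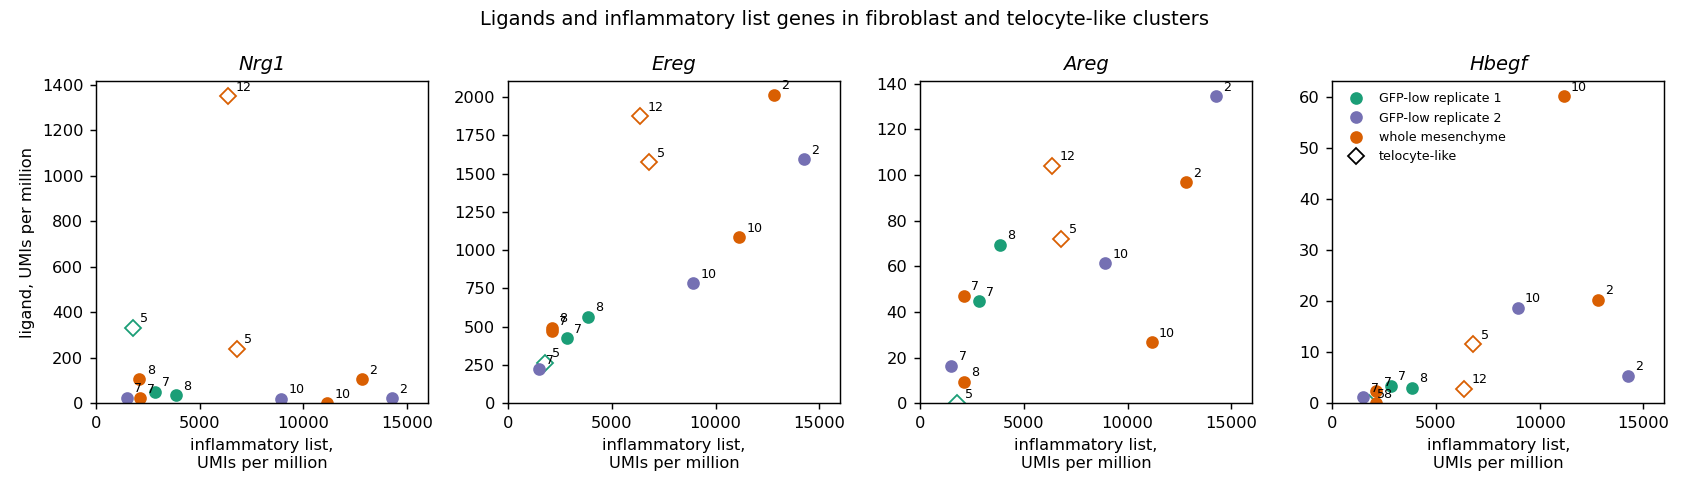
Level of each ligand (CPM) against the summed CPM of the inflammatory list for each fibroblast-like or telocyte-like cluster and library, with diamonds for telocyte-like clusters. Ereg is 2015 CPM where the inflammatory sum is 12823 CPM and 221 CPM where it is 1507 CPM, and the telocyte-like clusters of whole mesenchyme have 1573 and 1876 CPM at sums of 6809 and 6358 CPM.

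The genes most like each ligand were found over 41 sums of a cluster in a library, which share libraries and depth, among 7244 genes, by Pearson's r of log2(CPM + 10) as a description. For Nrg1 they were Pde1c (0.865), Col6a4 (0.838), Emid1 (0.833), Bmp7 (0.825) and Nxf7 (0.795). For Ereg they were Hcar2 (0.859), Bdkrb2 (0.824), Adamdec1 (0.816), Tcim (0.814) and Fhl2 (0.798). For Areg they were Rgs2 (0.747), Slc15a3 (0.744), Adamdec1 (0.724), Dach1 (0.715) and Hpse (0.707). Hbegf was most like Specc1 (0.796), Pdgfb (0.77), Rgs16 (0.733), Fabp4 (0.729) and Mmp15 (0.728), of which Pdgfb is an endothelial growth factor gene. Between the ligands r was 0.696 for Ereg with Areg, 0.54 for Nrg1 with Ereg and 0.391 for Nrg1 with Areg, while Hbegf had -0.012 with Nrg1, 0.209 with Ereg and 0.07 with Areg.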

How the data were processed

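The deposited files are UMI count matrices of 3 libraries made with the 10x 3′ v3.1 assay, which the authors made with the tool Cell Ranger (version 3.0.2) and build mm10, per the submitters' processing notes, and 8000 live cells were loaded per library. Barcodes below the cell limits were kept as free RNA when they had 1 to 100 UMIs. The members and gene lists were chosen with earlier results of these data known. Cells were clustered with scanpy 1.11.5 (Leiden) on 15567 genes. The class comparisons were tested on the other 15486, which hold the ligands and lists. The splits by a UMI were tested on genes of both parts, cluster markers such as Ednrb and Tagln included. Counts were summed per class and library (at least 10 cells) and tested with edgeR 4.0.16 (TMM normalization, default filter on low counts, library as block, adjusted p under 0.05). The libraries pair the classes, since the class sums of a library come from one run. Splits by a UMI leave the splitting gene out. All 4 ligands passed the filter in the class comparisons. Genes outside the lists were named by a fixed rule: the 5 largest differences each way with at least 50 CPM in 1 group, past the threshold and alike in every library. One gene that this rule takes is not reported here. Scrublet marked 3, 3 and 2 cells, too few to have worked, so no doublets were removed, and dropping the 6% highest scores was an alternative. Alternatives were DESeq2 1.42.0, no filter, no library block, each library left out, other Adamdec1 limits (0.2%, 0.8%), thinning to 1000 UMIs, free RNA subtracted, a stricter cell filter (2000 UMIs, 10% mitochondrial) and Leiden resolution 2. Repeating these settings for the classes by cluster name, leaving libraries out of the splits within Adamdec1 fibroblast-like clusters, and holding the library difference to those clusters were chosen after seeing the data. On simulated counts the test recovered 100% of genes changed by 1 on the log2 scale between Adamdec1 and Cd81-high fibroblast-like classes by cluster name. For the Ereg split it recovered 99.1%. False calls numbered 7 of 6128 genes and 2 of 11427 genes. Only genes above a CPM limit were changed, and no difference between libraries was simulated. The telocyte comparisons were not tried in this way.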

Additional observations from a re-analysis of the deposited data

Results flagged for a closer look

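Hbegf differed in direction between the library types when Adamdec1 cells were set against Cd81-high fibroblast-like cells. Its log2 difference was -0.67 and -0.021 in replicates 1 and 2 of GFP-low, against 0.67 in whole mesenchyme. The difference was not tested.

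Areg also differed in direction between Adamdec1 cells with and without an Ereg UMI. Its log2 difference was -0.38 and -0.89 in replicates 1 and 2 of GFP-low, against 0.34 in whole mesenchyme. Within Adamdec1 fibroblast-like clusters alone it was -0.086 and -0.88 in the GFP-low libraries, against 0.27 in whole mesenchyme. Neither difference was tested. No group held 4 or more libraries, so no library could be read as an outlier.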

How the results depend on the processing

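Counts of genes called are given first. Adamdec1 cells against Cd81-high cells gave 1587 calls, 897 to 2186 without 1 library and 841 after thinning. By cluster name there were 1715, and 925 after thinning. Telocytes against Adamdec1 cells gave 179 calls, 15 to 243 without 1 library, 293 with DESeq2, 476 without a filter, 6 at the 0.2% limit, 476 at 0.8% and 1012 by cluster name. That last count was 540 to 910 without 1 library. Telocytes against Cd81-high cells gave 686, with 298 to 661 without 1 library, 204 at 0.2%, 1130 at 0.8%, 451 after thinning and 1703 by cluster name, which was 949 to 1499 without 1 library and 1021 after thinning. The Ereg split gave 259, with 106 to 438 without 1 library, 89 with DESeq2, 418 without a filter and 102 after thinning. Its cluster-only form gave 241, and 136 to 278 without 1 library. The Nrg1 split gave 1015, with 609 to 766 without 1 library, 403 with DESeq2 and 339 after thinning, and its cluster-only form 827, and 490 to 783. The lowest of these counts came without GFP-low replicate 1 for the class comparisons with the 0.4% limit, which had 1055 calls without GFP-low replicate 2 (Adamdec1 against Cd81-high) and 430 without whole mesenchyme (telocytes against Cd81-high). They came without whole mesenchyme for the other comparisons, and the 438 of the Ereg split came without GFP-low replicate 2.

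Without the library block, which pairs the classes of a library, counts were 718 and, by cluster name, 745 for Adamdec1 against Cd81-high cells, 60 and 456 for telocytes against Adamdec1 cells, and 986 by cluster name for telocytes against Cd81-high cells. The Nrg1 split had 4 calls. The Ereg split had 0, with 73 of 11348 genes at an unadjusted p under 0.05 in edgeR, against 89 calls by DESeq2 with the block. Calls lost without the block were Ereg in Adamdec1 against Cd81-high cells (log2 2.74, and 2.73 by cluster name), Nrg1 (2.35, and 2.29) and Ereg (-0.58, by cluster name) in telocytes against Adamdec1 cells, Ereg in telocytes against Cd81-high cells (2.25, and 2.15), Nrg1 in the Ereg split (1.49) and Ereg in the Nrg1 split (0.89). Hbegf, never called, changed sign without the block to 0.15 in Adamdec1 against Cd81-high cells and to 0.025 by cluster name in telocytes against Cd81-high cells.

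Other ligand calls that were lost were Nrg1 in telocytes against Adamdec1 cells (log2 1.62 with DESeq2, 2.13 at the 0.2% limit, 1.73 to 1.85 without 1 library, 1.58 by cluster name with DESeq2), Ereg there by cluster name (-1.25 with DESeq2, -1.89 to -0.67 without 1 library), Ereg in telocytes against Cd81-high cells (0.35 to 2.18 without 1 library) and Nrg1 in the Ereg split (1.18 with DESeq2, 0.76 to 1.83 without 1 library, 0.64 to 1.77 cluster-only). Areg in telocytes against Cd81-high cells was -8.47 to 4.21 without 1 library, and by cluster name -8.10 to 3.17, and 1.39 with DESeq2. The negative values are fits against 0 UMIs. Ligands without a call changed sign in these cases. Hbegf in Adamdec1 against Cd81-high cells was -0.41 to 0.15 without 1 library, 0.057 after thinning and 0.025 by cluster name, itself -0.027 with DESeq2 and -0.30 to 0.30 without 1 library. Areg in telocytes against Adamdec1 cells was -0.60 with DESeq2, -0.32 at 0.8%, -0.63 by cluster name and -12.5 to 0.73 without 1 library. Areg in the Ereg split was -0.58 to 0.12 without 1 library (-0.44 to 0.16 cluster-only), 0.10 at 0.8%, 0.47 after thinning and 0.33 when split after thinning. In the Nrg1 split Areg was 0.0073 after thinning, and Hbegf was -0.0064 at 0.2% and -0.35 at 0.8%. The library difference of Nrg1 was -1.47 in Adamdec1 fibroblast-like clusters. That of Ereg was -1.55 at 0.2%, -1.65 at 0.8%, -1.42 after thinning, -1.64 with the stricter filter and -1.67 in those clusters. Except where a setting leaves out libraries or genes, the cause was not tested. Few telocyte-like cells in GFP-low and 1 whole mesenchyme library limit these comparisons, and the fits with the 0.4% limit without GFP-low replicate 1 or whole mesenchyme, and those at 0.2%, rest on 1 telocyte sum.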
